A study of Mus musculus with 15 samples.

Results

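B lymphocyte genes were followed across 5 groups of mouse colon samples. The set was 9 genes taken as a named list: Cd79a, Cd79b, Ms4a1, Cd22, Cr2, Fcmr, Fcer2a, Pax5 and Blk. A probe set was taken where the platform annotation gave it exactly 1 of these symbols. That found all 9 genes, of 18193 genes measured, through 13 of the 34945 probe sets with 1 symbol. For the 4 genes with several probe sets, Ms4a1, Cd22, Fcer2a and Pax5, the brightest probe set by its mean on the 15 arrays stands for the gene, and the others are given beside it.

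Total RNA of colon from male mice aged 3 months, littermates on a C57BL/6 and 129 hybrid background, was measured on 15 microarrays, 3 in each group. The double mutants, APC+/-/Olfm4-/-, gave tumour tissue and adjacent normal tissue. APC mutant colon was APC+/-/OLFM4(+/+), Olfm4 mutant colon was APC+/+/Olfm4-/-, and wild type colon was APC+/+/Olfm4+/+. The Apc protein holds Wnt signalling in check, and Olfm4, which crypt cells and neutrophils make, is a secreted protein. The Apc allele and the way Olfm4 was disrupted were not given in these sources. By their titles, which carry only 2 animal numbers, the double mutant samples come from 2 mice, with replicates 2 and 3 of both tissues from the same one. The design text counts 3 mice for every group, and which holds was not settled. If the titles hold, p-values measure the spread between samples that are partly from the same animal. The number in the title of Olfm4 mutant replicate 3 looks like digits of its group mates run together, so its animal is uncertain too.

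B cells recognise antigen through a membrane immunoglobulin whose signal is passed on by a pair of partner chains, and coreceptors on the same surface raise or damp that signal. In the colon, B cells lie mainly in isolated lymphoid follicles and colonic patches, which are scattered along the wall, while the plasma cells that descend from them lie spread through the lamina propria. Most of the 9 genes are switched off as a B cell becomes a plasma cell.

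Values are log2 signals on a scale where 1 unit is a 2-fold change, and the arrays had medians from 6.35 to 6.47. The single Olfm4 probe set lay between 2.97 and 3.32 on every array, wild type colon included, so it does not check the genotype labels, and the brightest Apc probe set lay between 10.29 and 11.05. The 7 epithelial genes averaged 12.64 to 12.94 in tumours, against 13.45 to 13.78 in the other 4 groups, and the 8 smooth muscle genes averaged 8.56 to 10.30 in tumours, against 12.06 to 13.47 in those groups. The gap between 3-prime and 5-prime probe sets of added bacterial RNAs, a measure of the labelling, averaged 5.01 in tumours, 4.10 in adjacent tissue, 2.16 in APC mutant colon, 2.64 in Olfm4 mutant colon and 1.99 in wild type colon. It ran from 4.73 to 5.22 in tumours, from 3.91 to 4.45 in adjacent tissue and from 1.89 to 3.25 in the other 3 groups. These ranges do not overlap. In comparisons of tumour or adjacent tissue, labelling and group thus cannot be told apart, with or without the gap as a covariate. Wild type replicate 3 stood above the other wild type arrays for most B cell genes, and comparisons with wild type colon are given with and without it where that changes a call. The array numbers run group by group, so array order and group cannot be told apart.

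The promoter windows of 4 genes that fell together in tumour against adjacent tissue are shown. Those of Fcer2a, which also fell, and of Pax5 were searched too but are not printed. Windows hold 250 bases before and 50 after the start of the RefSeq gene on GRCm38.p6, 5′ to 3′, and were available for 6 of the 9 genes, 8 windows in all with 3 for Fcer2a. Capitals mark matches, on either strand, to 4 motifs: ATGCAAAT, the octamer bound by Oct factors; CCCNNGGG, the half-sites bound by EBF1; GAGGAA, the core bound by PU.1; and CAGGTG, an E protein box. No match overlapped another. Every window without a match is among those not printed, so the windows shown do not represent all 8. Cd79a (chr7:24897247-24897546, plus strand) is followed by Cd22 (chr7:30878979-30879278, minus strand), Cr2 (chr1:195176670-195176969, minus strand) and Fcmr (chr1:130865527-130865826, plus strand).
Cd79a: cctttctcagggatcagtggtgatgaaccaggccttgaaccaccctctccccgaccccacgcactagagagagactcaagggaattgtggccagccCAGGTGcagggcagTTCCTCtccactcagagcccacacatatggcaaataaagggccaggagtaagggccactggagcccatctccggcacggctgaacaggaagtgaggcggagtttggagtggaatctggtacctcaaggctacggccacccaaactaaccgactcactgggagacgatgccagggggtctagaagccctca
Cd22: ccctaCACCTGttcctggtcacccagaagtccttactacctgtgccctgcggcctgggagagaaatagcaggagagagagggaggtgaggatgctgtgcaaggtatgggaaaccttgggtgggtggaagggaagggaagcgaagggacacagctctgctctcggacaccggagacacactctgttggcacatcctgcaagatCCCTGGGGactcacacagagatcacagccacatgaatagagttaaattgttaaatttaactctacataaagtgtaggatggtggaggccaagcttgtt
Cr2: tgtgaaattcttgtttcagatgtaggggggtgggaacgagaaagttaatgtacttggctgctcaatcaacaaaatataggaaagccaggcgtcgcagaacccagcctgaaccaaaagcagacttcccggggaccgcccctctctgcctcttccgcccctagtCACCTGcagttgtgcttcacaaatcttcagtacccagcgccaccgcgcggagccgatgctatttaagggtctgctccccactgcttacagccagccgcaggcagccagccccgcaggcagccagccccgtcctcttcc
Fcmr: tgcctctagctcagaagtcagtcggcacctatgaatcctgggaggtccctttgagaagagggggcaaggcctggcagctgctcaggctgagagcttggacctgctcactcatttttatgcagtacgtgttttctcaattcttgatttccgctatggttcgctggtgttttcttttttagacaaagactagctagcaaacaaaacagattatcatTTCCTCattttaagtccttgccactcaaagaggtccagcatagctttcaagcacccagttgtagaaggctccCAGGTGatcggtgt

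CAGGTG or its complement stood in 5 of the 8 windows, of Cd79a, Cd22, Cr2, Fcmr and Fcer2a, and in 20.2% of all 32851 windows. GAGGAA stood in 2 of the 8, those of Cd79a and Fcmr, and in 28.3% of all windows. CCCNNGGG stood in 1 of the 8, that of Cd22, and in 13.7% of all windows. ATGCAAAT stood in none of the 8 windows and in 1.74% of all windows. With the given strand alone, CAGGTG stood in 3 of the 8 windows, of Cd79a, Fcer2a and Fcmr, and in 11.2% of all windows. A match is a match of letters, not a bound site.

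The first comparison asked how tumour differed from the adjacent tissue of the same kind of mouse. All 9 genes had every tumour array below every adjacent array, and 8 of the 9 fell in tumour at an adjusted p of at most 0.05. Of all 18193 genes, 13.8% fell by that rule and 22.3% had arrays that lay lower without overlap. The median difference of the 9 genes was -2.57, against 0.00 for all genes. The fall ran from 2.34-fold for Fcer2a to 16.1-fold for Ms4a1. Without tumour replicate 1, its lowest array, Ms4a1 fell by 3.18 log2 units (adjusted p = 0.0450). In a bulk sample fewer B cells and less RNA per B cell cannot be told apart.

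Cd79a and Cd79b encode the partner chains that carry the signal of the B cell receptor. Cd79a, read by probe set 1418830, was 7.02, 7.49 and 7.10 in the 3 tumours and 10.03, 10.05 and 9.24 in the 3 adjacent samples. It was 10.37, 8.97 and 9.99 in APC mutant colon, 9.51, 8.93 and 9.52 in Olfm4 mutant colon and 8.95, 8.67 and 10.29 in wild type colon. All 3 tumours lay below all 12 other arrays, and the other 4 groups overlapped one another. Cd79b, read by probe set 1417640, was 6.92, 7.22 and 7.46 in the 3 tumours and 10.52, 10.56 and 9.56 in the 3 adjacent samples. It was 11.05, 9.74 and 10.88 in APC mutant colon, 10.16, 9.05 and 9.91 in Olfm4 mutant colon and 9.77, 9.06 and 10.87 in wild type colon. Cd79b had the same layout, with the highest mean in APC mutant colon rather than in adjacent tissue. Cd79a fell by 2.57 in tumour against adjacent tissue (SE 0.42, 5.95-fold, adjusted p = 0.000574), and Cd79b fell by 3.01 (SE 0.47, 8.07-fold, adjusted p = 0.000400).

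Ms4a1 encodes CD20, a surface protein of mature B cells, and Cd22 a sialic acid binding receptor that damps the B cell receptor. Ms4a1, read by probe set 1450912, was 4.24, 6.55 and 6.91 in the 3 tumours and 10.22, 10.10 and 9.41 in the 3 adjacent samples. It was 8.53, 7.46 and 9.27 in APC mutant colon, 8.62, 7.80 and 8.21 in Olfm4 mutant colon and 6.96, 4.64 and 9.76 in wild type colon. Adjacent tissue lay above the tumours, the APC mutant and the Olfm4 mutant without overlap, while the wild type arrays spread across most of the range and replicate 2 lay near the lowest tumour. Ms4a1 fell by 4.01 in tumour against adjacent tissue (SE 1.02, 16.1-fold, adjusted p = 0.00987). Its other probe set, 1423226, gave -3.46 (adjusted p = 0.0156 over all probe sets). Cd22, read by probe set 1419768, was 7.69, 7.67 and 7.91 in the 3 tumours and 10.11, 10.003 and 9.43 in the 3 adjacent samples. It was 8.24, 7.92 and 9.09 in APC mutant colon, 8.32, 8.40 and 8.71 in Olfm4 mutant colon and 7.28, 7.22 and 8.68 in wild type colon. All 3 adjacent arrays lay above all 12 others, and the tumours lay between the wild type arrays. Cd22 fell by 2.09 in tumour against adjacent tissue (SE 0.37, 4.26-fold, adjusted p = 0.000903). The other Cd22 probe set, 1419769, gave -0.20 (adjusted p = 0.771 over all probe sets), so the 2 probe sets disagree.

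Cr2 encodes a complement receptor that lowers the threshold of the B cell receptor and is also made by follicular dendritic cells, Fcmr a receptor for IgM, and Fcer2a CD23, the low-affinity receptor for IgE. Cr2, read by probe set 1425289, was 5.06, 5.56 and 5.23 in the 3 tumours and 8.27, 8.01 and 7.58 in the 3 adjacent samples. It was 6.49, 5.97 and 7.65 in APC mutant colon, 6.89, 6.07 and 6.78 in Olfm4 mutant colon and 5.50, 5.06 and 6.97 in wild type colon. The 3 tumours lay below all adjacent, APC mutant and Olfm4 mutant arrays, and among the wild type arrays only replicate 3 stood clear of them. Fcmr, read by probe set 1429889, was 5.75, 7.40 and 7.25 in the 3 tumours and 10.73, 10.51 and 9.94 in the 3 adjacent samples. It was 8.93, 8.11 and 9.61 in APC mutant colon, 9.36, 9.12 and 9.32 in Olfm4 mutant colon and 7.24, 5.85 and 9.09 in wild type colon. The 3 adjacent arrays were the highest of the 15, and wild type replicates 1 and 2 lay within the range of the tumours. Fcer2a, read by probe set 1422122, was 5.80, 5.95 and 5.92 in the 3 tumours and 7.10, 7.56 and 6.69 in the 3 adjacent samples. It was 7.27, 6.03 and 6.64 in APC mutant colon, 6.26, 5.94 and 6.19 in Olfm4 mutant colon and 5.61, 5.68 and 6.49 in wild type colon. Adjacent tissue lay above the tumours, Olfm4 mutant colon and wild type colon without overlap, while APC mutant colon overlapped adjacent tissue. In tumour against adjacent tissue Cr2 fell by 2.67 (SE 0.48, adjusted p = 0.00102), Fcmr by 3.60 (SE 0.67, adjusted p = 0.00133) and Fcer2a by 1.23 (SE 0.31, adjusted p = 0.00907). The other Fcer2a probe set, 1451713, gave -0.06 (adjusted p = 0.868 over all probe sets).

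Blk encodes a Src-family kinase that acts just below the B cell receptor, and Pax5 the transcription factor that holds B cell identity. Blk, read by probe set 1422775, was 5.72, 7.12 and 7.45 in the 3 tumours and 8.60, 8.54 and 7.77 in the 3 adjacent samples. It was 7.30, 6.70 and 8.25 in APC mutant colon, 7.84, 6.56 and 7.46 in Olfm4 mutant colon and 6.83, 6.65 and 7.77 in wild type colon. The highest tumour array lay below the lowest adjacent array, but within the range of each of the other 3 groups. Blk fell by 1.54 in tumour against adjacent tissue (SE 0.51, 2.90-fold, adjusted p = 0.0397), and this call was lost with the replicate number as a block (adjusted p = 0.0784). Pax5, read by probe set 1454401, was 4.31, 4.52 and 4.38 in the 3 tumours and 4.79, 4.60 and 4.60 in the 3 adjacent samples. It was 4.47, 4.33 and 4.39 in APC mutant colon, 4.50, 4.61 and 4.52 in Olfm4 mutant colon and 4.60, 4.77 and 4.50 in wild type colon. Pax5 ran from 4.31 to 4.79 over all 15 arrays, with the tumours just below adjacent tissue. Its difference was -0.26 (95% interval -0.49 to -0.04, adjusted p = 0.0792), with adjusted p = 0.0370 when animal was a random block and 0.0372 with cyclic loess normalization. The other Pax5 probe set, 1421765, gave -0.09 (adjusted p = 0.688 over all probe sets). No detection calls were at hand, so whether either Pax5 probe set stood above background was not assessed.

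**Figure D1:**
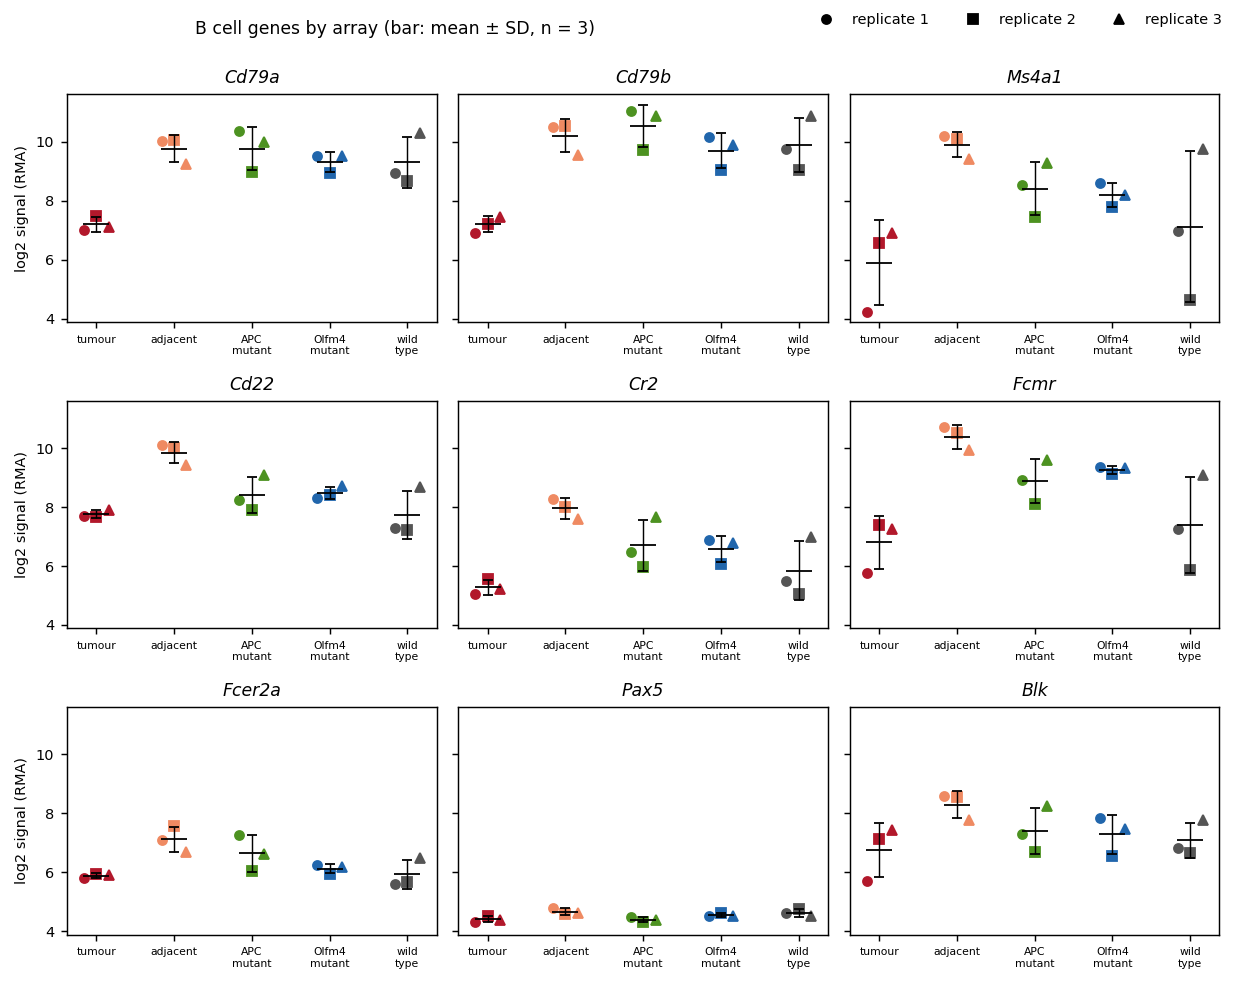
Log2 signal (vertical axis) of each of the 9 genes on the 15 arrays, by group; tumour and adjacent tissue are both from the double mutants, circles, squares and triangles are replicates 1, 2 and 3, and bars are the mean ± SD of 3 arrays. Tumours lie below adjacent tissue for every gene, only Cd79a and Cd79b have all tumours below all 12 other arrays, and wild type replicate 3 is the highest wild type array for 8 of the 9 genes.

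The labelling measure and other cell types moved with this comparison. The spike-in gap averaged 5.01 ± 0.26 in tumours and 4.10 ± 0.30 in adjacent tissue (SD, n = 3 each). With that gap as a covariate only Cd22 kept its call (-1.97, adjusted p = 0.0476). All 9 differences stayed negative, with Cd79a at -1.97 (adjusted p = 0.0648), Cd79b at -1.96 (adjusted p = 0.0644), Fcmr at -3.29 (adjusted p = 0.0651) and Blk at -0.59 (adjusted p = 0.691). Of the smooth muscle genes, 8 of 8 fell in tumour, with a summed signal of 6113 to 15763 in tumours and 42615 to 57117 in adjacent tissue. Tumour replicate 1 had the highest smooth muscle level of the tumours and the lowest mean level of the 9 B cell genes, 5.83, against 6.61 and 6.62 in replicates 2 and 3. Epithelial genes fell for 4 of 7, T cell genes for 2 of 11, and pan-leukocyte genes for 0 of 6. Of all genes, 13.8% fell in this comparison. The summed T cell signal was 1147 to 2383 in tumours and 2243 to 2676 in adjacent tissue, and the summed pan-leukocyte signal was 16243 to 19076 in tumours and 18947 to 22997 in adjacent tissue. The part of these in the B cell differences was not tested.

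The tumours were then set against the 3 other groups. Against wild type colon, Cd79a and Cd79b fell, 2 of the 9 genes, a share close to the 20.1% of all genes that fell. Cd79a differed by -2.11 (SE 0.42, adjusted p = 0.00113) and Cd79b by -2.71 (SE 0.47, adjusted p = 0.000392). The other 7 genes did not pass, with Cd22 at 0.03 (95% interval -0.77 to 0.83), Fcer2a at -0.04 (95% interval -0.71 to 0.62), Fcmr at -0.59 and Ms4a1 at -1.22 (95% interval -3.43 to 0.98). Without wild type replicate 3 both calls held, Cd79a at -1.61 (adjusted p = 0.00391) and Cd79b at -2.22 (adjusted p = 0.00162). Without wild type replicate 2, Ms4a1 fell by 2.46 (adjusted p = 0.0347), and with cyclic loess normalization Pax5 fell by 0.33 (adjusted p = 0.00723). The spike-in gap averaged 5.01 in tumours and 1.99 in wild type colon, and with it as a covariate neither call held, Cd79a being at -0.11 and Cd79b at 0.79. The gap did not overlap between these groups, so that fit cannot separate labelling from group.

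Against APC mutant colon 4 of the 9 genes fell, where 19.5% of all genes fell, and 7 had tumour arrays below all APC mutant arrays, where 22.8% of all genes had. The 4 were Cd79a at -2.57 (SE 0.42, adjusted p = 0.000296), Cd79b at -3.36 (SE 0.47, adjusted p = 8.6e-05), Cr2 at -1.42 (SE 0.48, adjusted p = 0.0267) and Fcmr at -2.08 (SE 0.67, adjusted p = 0.0210). Of the 6 fits that each leave out 1 tumour or APC mutant array, 3 lost the call of Cr2 (adjusted p up to 0.121) and 3 that of Fcmr (adjusted p up to 0.0913). Against Olfm4 mutant colon the same 4 genes fell, where 18.6% of all genes fell, and 6 had tumours below all Olfm4 mutant arrays, where 24.7% of all genes had. Cd79a differed by -2.12 (SE 0.42, adjusted p = 0.00152), Cd79b by -2.51 (SE 0.47, adjusted p = 0.000988), Cr2 by -1.30 (SE 0.48, adjusted p = 0.0464) and Fcmr by -2.46 (SE 0.67, adjusted p = 0.0101). The call of Cr2 was lost in 5 of the 6 fits that each leave out 1 array (adjusted p from 0.0653 to 0.137), with animal as a random block (adjusted p = 0.0673) and with the arrays of an animal averaged (adjusted p = 0.0963), which leaves 3 genes. These comparisons use the same 3 tumours, and with the spike-in covariate none of the 9 genes passed in either.

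**Figure D2:**
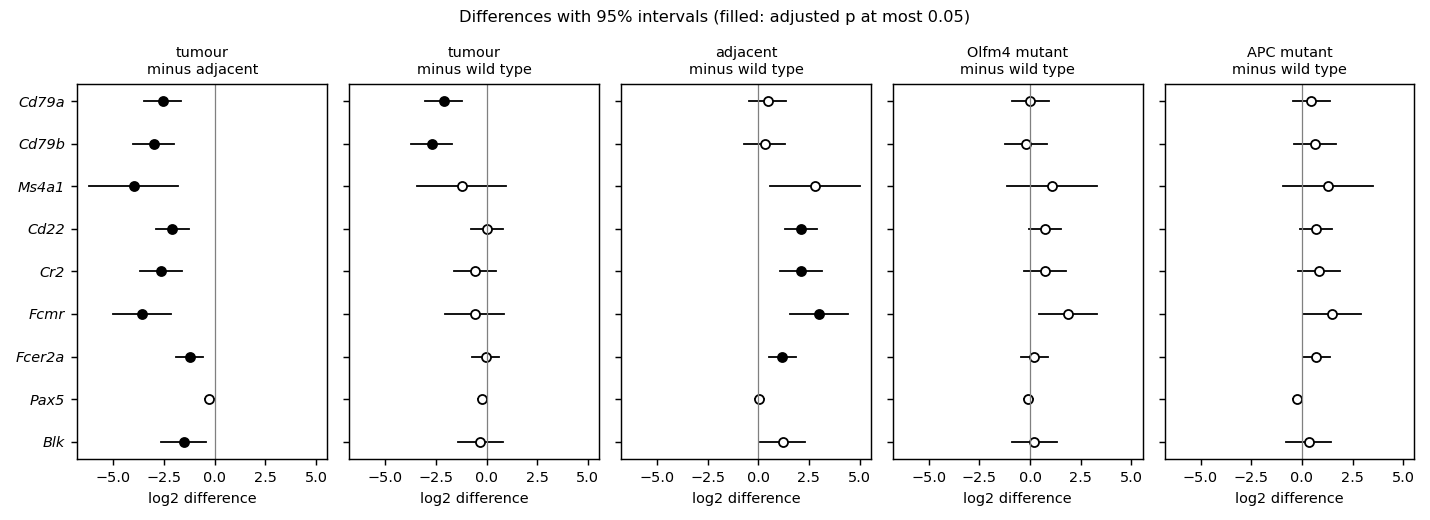
Log2 difference (horizontal axis) of each of the 9 genes in 5 comparisons, with 95% intervals from limma and filled points for an adjusted p of at most 0.05. In tumour minus adjacent tissue 8 points are filled and below 0, in tumour minus wild type 2, in adjacent minus wild type 4 are filled and above 0, and in the Olfm4 mutant and APC mutant minus wild type none is filled.

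Adjacent tissue was also set against the colon of the other genotypes. It differed from them both in genotype and in lying beside a tumour, and these cannot be told apart. Against wild type, 4 of the 9 genes rose in adjacent tissue, all of them receptors of the mature B cell surface, where 17.7% of all genes rose. They were Cd22 at 2.12 (SE 0.37, adjusted p = 0.00157), Cr2 at 2.11 (SE 0.48, adjusted p = 0.00640), Fcmr at 3.00 (SE 0.67, adjusted p = 0.00587) and Fcer2a at 1.19 (SE 0.31, adjusted p = 0.0129). The second probe sets of Cd22 and Fcer2a did not pass, 1419769 for Cd22 at -0.01 (adjusted p = 0.988) and 1451713 for Fcer2a at 0.13 (adjusted p = 0.569) over all probe sets. Those of Ms4a1 and Pax5 stood at 1.81 (adjusted p = 0.169) and 0.26 (adjusted p = 0.127). For Cd22, Cr2, Fcmr and Fcer2a, by the brightest probe set, all adjacent arrays lay above all wild type arrays, where 26.2% of all genes had that order. The receptor chains differed by 0.47 for Cd79a (95% interval -0.45 to 1.39, adjusted p = 0.450) and by 0.31 for Cd79b (95% interval -0.71 to 1.33, adjusted p = 0.671), with overlapping arrays. Ms4a1 differed by 2.79 (SE 1.02, adjusted p = 0.0585), Blk by 1.22 (SE 0.51, adjusted p = 0.0969) and Pax5 by 0.04 (SE 0.10, adjusted p = 0.797). Only the sizes are set side by side here, since whether the receptors rose by more than the receptor chains was not tested.

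Wild type replicate 3 stood above the other wild type arrays. It was the highest wild type array for 8 of the 9 genes, Pax5 excepted, and the mean of the 9 genes was 8.27 on it, against 6.97 and 6.399 on replicates 1 and 2. Adjacent arrays averaged 8.93, 8.88 and 8.25. Without wild type replicate 3, Ms4a1 rose as well, by 4.11 (adjusted p = 0.00439), making 5 of 9 genes, and Fcmr rose by 3.85, Cr2 by 2.68, Cd22 by 2.60 and Fcer2a by 1.47. Without wild type replicate 2, Fcmr rose by 2.23 (adjusted p = 0.0218). Fcer2a then missed the threshold, with adjusted p = 0.0502, and likewise without adjacent replicate 2, with adjusted p = 0.0572. The spike-in gap averaged 4.10 ± 0.30 in adjacent tissue and 1.99 ± 0.08 in wild type colon (SD, n = 3 each). With it as a covariate none of the 9 genes passed, and the differences of the 4 genes were 2.40 for Cd22, 2.93 for Cr2, 3.71 for Fcmr and 2.37 for Fcer2a. Pan-leukocyte genes rose for 3 of 6 in adjacent tissue against wild type, with Ptprc at 1.35 (adjusted p = 0.0123), and their summed signal was 18947 to 22997 in adjacent tissue and 12914 to 22062 in wild type colon. T cell genes rose for 2 of 11, smooth muscle genes fell for 1 of 8 and epithelial genes for 1 of 7. Of all genes, 17.7% rose and 5056 of 18193 passed in either direction. The part of these lists in the B cell differences was not tested.

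**Figure D3:**
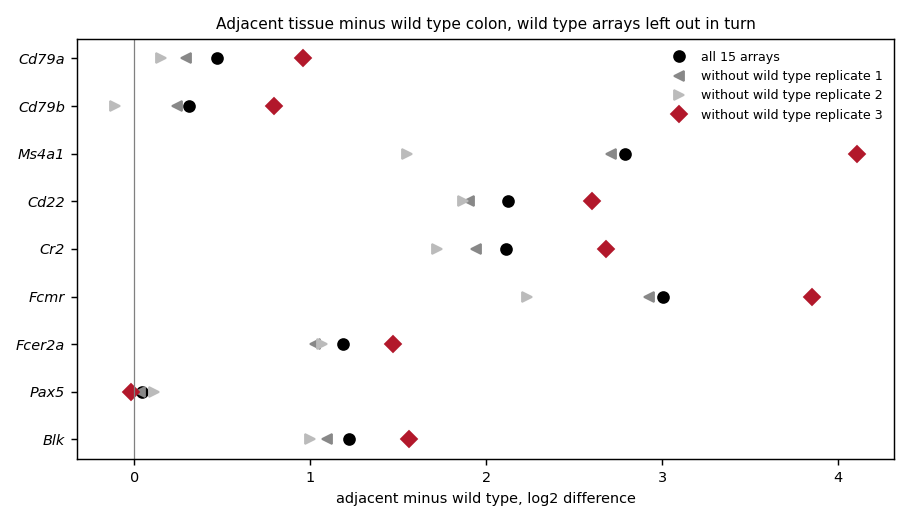
Log2 difference between adjacent and wild type tissue (horizontal axis) for each of the 9 genes, with all 15 arrays and with each wild type array left out in turn. Leaving out replicate 3 moves 8 of the 9 points to higher values, Ms4a1 to 4.11, against 2.79 with all arrays.

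Against APC mutant colon only Cd22 of the 9 genes rose in adjacent tissue, by 1.43 (SE 0.37, adjusted p = 0.0199), a share of the set close to the 9.88% of all genes that rose. The other Cd22 probe set, 1419769, gave -0.32 (adjusted p = 0.546) over all probe sets. The call was lost in 4 of the 6 fits that each leave out 1 array (adjusted p from 0.0597 to 0.0756) and with the arrays of an animal averaged (adjusted p = 0.0544). Fcmr differed by 1.51 (SE 0.67, adjusted p = 0.136) and Cr2 by 1.25 (SE 0.48, adjusted p = 0.0888). An unadjusted p of at most 0.05 was reached by 4 of the 9 genes, Cd22, Cr2, Fcmr and Pax5, as by 33.1% of all genes. For Ms4a1, Cd22, Fcmr and Pax5 all adjacent arrays lay above all APC mutant arrays, an order whose share over all genes is not given here. Against Olfm4 mutant colon none of the 9 genes passed limma, as for all but 8 of 18193 genes (0.044%), while 3 of the 9 had an unadjusted p of at most 0.05, Cd22, Cr2 and Fcer2a, as did 16.3% of all genes. Adjacent arrays lay above all Olfm4 mutant arrays for 5 of the 9 genes, where 13.9% of all genes had that order, with Cd22 at 1.37 (SE 0.37, adjusted p = 0.0992) and Fcer2a at 0.99 (SE 0.31, adjusted p = 0.138).

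The single mutants were compared with wild type, and neither moved any of the 9 genes past the threshold. In Olfm4 mutant colon 7.92% of all genes passed in either direction; 1 of the 9 genes, Fcmr, had an unadjusted p of at most 0.05, as did 24.6% of all genes. Fcmr was higher on all 3 Olfm4 mutant arrays than on any wild type array, a layout that 17% of all genes had, and differed by 1.87 (95% interval 0.42 to 3.32, adjusted p = 0.103). Without wild type replicate 3, Fcmr rose by 2.72 (adjusted p = 0.0209) and Cd22 by 1.23 (adjusted p = 0.0363). In APC mutant colon 0 of 18193 genes passed limma (0%), 7.28% had an unadjusted p of at most 0.05, and 3 of the 9 genes did, Fcmr, Fcer2a and Pax5. Fcmr differed by 1.49 (95% interval 0.04 to 2.94, adjusted p = 0.673), Fcer2a by 0.72 (95% interval 0.05 to 1.38, adjusted p = 0.656) and Pax5 by -0.23 (95% interval -0.45 to -0.00063, adjusted p = 0.685). The median difference of the 9 genes hung on the wild type arrays. It was 0.69 with all arrays and 1.14 without wild type replicate 3, but 0.56 without replicate 1 and 0.23 without replicate 2. In each of these fits 0 of the 9 genes passed limma. Both comparisons share the wild type arrays. An interaction was tested, the step between adjacent tissue and APC mutant colon less the step between Olfm4 mutant and wild type colon. The only double mutant tissue in it lay beside tumours, so a joint action of the 2 mutations and nearness to a tumour cannot be told apart. The spike-in gap also averaged 4.10 in adjacent tissue, against 1.99 to 2.64 in the other 3 groups. None of the 9 genes passed limma and 0 of all genes did (0%), with Pax5 alone at an unadjusted p of at most 0.05, as were 10.4% of all genes. The intervals were wide, as for Cd22 at 0.68 (95% interval -0.45 to 1.81) and Fcmr at -0.36 (95% interval -2.40 to 1.69).

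By group mean, 8 of the 9 genes were highest in adjacent tissue and 7 were lowest in tumour. The exceptions were Cd79b, highest in APC mutant colon, Cd22, lowest in wild type colon, and Pax5, lowest in APC mutant colon. Most neighbours in each order overlapped. The steps without overlap were wild type above tumour for Cd79a and Olfm4 mutant above tumour for Cd79b. For Ms4a1 the step lay between adjacent tissue and APC mutant colon, and for Fcmr between adjacent tissue and Olfm4 mutant colon. Cd22 had a step between adjacent tissue and Olfm4 mutant colon and another between APC mutant colon and tumour. Cr2, Fcer2a, Pax5 and Blk had no such step. After each gene was centred on its own mean, the profile over the 15 arrays nearest to the mean of the set was that of Cr2, at a root mean square difference of 0.29 log2 units, and the farthest was that of Ms4a1, at 0.91.

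Among the other 18184 genes, those with the profile most like that mean were H2-Eb2, at a root mean square difference of 0.25 over 15 arrays, Bank1 at 0.27, Fcrla at 0.29, H2-DMb2 at 0.32 and Gimap3 at 0.34. Gpr18 at 0.36, Pou2af1 at 0.36, Btla at 0.42, Cd28 at 0.42 and Cxcr5 at 0.43 followed. With the median of the set in place of its mean, 9 of these 10 genes stayed among the 10 nearest.

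Other genes of the B cell pathway were taken from lists. In tumour against adjacent tissue 13.8% of all 18193 genes fell, and 5112 passed in either direction. In adjacent tissue against wild type 17.7% of all genes rose, and 5056 passed in either direction. The list counts stand beside these values. Of 12 measured genes of B cell receptor signalling, 3 fell and 2 rose in tumour against adjacent tissue, with a median of -0.04. Bank1, a scaffold of the receptor, differed by -2.37 (adjusted p = 0.00577) and the kinase Syk by -0.74 (adjusted p = 0.0112), while the adaptor Pik3ap1 differed by 1.87 (adjusted p = 0.00376). Between adjacent tissue and wild type colon 7 of the 12 rose and 1 fell, with a median of 0.86 against 0.13 for all genes. The kinase Btk differed by 1.43 (adjusted p = 0.00182), Bank1 by 1.81 (adjusted p = 0.0274) and the kinase subunit Pik3cd by 1.15 (adjusted p = 0.000727). The gene that fell, chosen for mention after its value was seen, was the phosphatase Ptpn6 at -0.69 (adjusted p = 0.0118). For the lists, leaving out each array in turn was added after these values were seen. Of the 6 such fits, 4 lost the call of Bank1 in adjacent against wild type (adjusted p up to 0.106), its difference being 1.14 without wild type replicate 2 and 2.54 without replicate 3, and 1 lost that of Ptpn6 (adjusted p = 0.0521, without wild type replicate 2).

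Of 12 B cell transcription factors 6 fell and 2 rose in tumour against adjacent tissue, with a median of -0.71, where 13.8% of all genes fell. Spib was 5.70, 5.49 and 5.49 in tumours and 8.54, 8.54 and 8.40 in adjacent tissue, a difference of -2.93 (adjusted p = 0.000273). Ebf1, a factor of early B cell commitment, differed by -1.79 (adjusted p = 0.00151), the octamer coactivator Pou2af1 by -1.94 (adjusted p = 8.7e-05) and Ikzf3 by -2.05 (adjusted p = 0.00334). The 2 that rose were Bcl11a at 1.06 (adjusted p = 0.00113) and Tcf3 at 1.04 (adjusted p = 0.00629). Ebf1 was 10.10, 9.36 and 10.18 on the wild type arrays, where the 9 B cell genes averaged 6.97, 6.399 and 8.27. Replicate 3 thus did not stand apart for Ebf1, and the cells that gave its signal were not tested. Set against wild type, adjacent tissue had 3 of the 12 higher and 2 lower by the test, with a median of 0.11. Of all genes, 17.7% were higher. Ikzf1 differed by 1.82 (adjusted p = 0.00205) and Ikzf3 by 1.83 (adjusted p = 0.00855), whereas Bach2 differed by -1.02 (adjusted p = 0.0355) and Irf8 by -0.99 (adjusted p = 0.00428). The call of Bach2 was lost in 3 of the 6 fits that each leave out 1 array (adjusted p up to 0.131).

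Of 11 surface and homing receptors 4 fell and 0 rose in tumour against adjacent tissue, with a median of -0.89, where 13.8% of all genes fell. Tnfrsf13c, the BAFF receptor that mature B cells need to survive, was 6.22, 7.76 and 8.14 in tumours and 11.23, 11.18 and 10.54 in adjacent tissue, a difference of -3.61 (adjusted p = 0.00284). The follicle homing receptor Cxcr5 differed by -1.51 (adjusted p = 0.0113), a call lost without adjacent replicate 1 (adjusted p = 0.0521). In adjacent tissue against wild type 4 of the 11 rose and 0 fell, where 17.7% of all genes rose. Among the 4 were Tnfrsf13c at 2.32 (adjusted p = 0.0361), Cxcr5 at 1.20 (adjusted p = 0.0378) and Gpr183, a guide of B cells to the edge of the follicle, at 1.29 (adjusted p = 0.0170). Tnfrsf13c on the wild type arrays was 7.44, 7.83 and 10.73, so replicate 3 stood apart for this gene too. Its difference was 3.35 (adjusted p = 0.00198) without that array and 1.70 without replicate 1, and 5 of the 6 fits that each leave out 1 array lost the call (adjusted p up to 0.127), against 4 for Cxcr5 and 3 for Gpr183.

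Of 10 follicle and homing ligands 4 fell and 0 rose in tumour against adjacent tissue, with a median of -0.79, where 13.8% of all genes fell. Cxcl13, the ligand of Cxcr5, was 11.25, 10.71 and 10.49 in tumours and 12.69, 12.46 and 12.08 in adjacent tissue, a difference of -1.59 (adjusted p = 0.00820). Lta, which organises lymphoid tissue, differed by -1.25 (adjusted p = 0.00152) and Ccl20 by -1.05 (adjusted p = 0.0379), a call lost in 5 of the 6 fits that each leave out 1 array (adjusted p up to 0.125). Of the same 10 ligands, 2 rose in adjacent tissue against wild type and 0 fell, a share close to the 17.7% of all genes that rose. Among the 2 was Tnfsf13b, which encodes BAFF, at 1.18 (adjusted p = 0.000406). Of 12 plasma cell genes 7 fell and 1 rose in tumour against adjacent tissue, with a median of -0.88, where 13.8% of all genes fell. Ighg3, a constant region of IgG, was 6.32, 6.17 and 6.48 in tumours and 10.65, 11.84 and 10.74 in adjacent tissue, a difference of -4.75 (adjusted p = 0.00157). Irf4 differed by -2.41 (adjusted p = 2.6e-05) and Tnfrsf17, the receptor that keeps plasma cells alive, by -2.17 (adjusted p = 0.000203). The gene that rose was Prdm1 at 0.63 (adjusted p = 0.0111), a call lost without adjacent replicate 1. In adjacent tissue against wild type 2 of the 12 rose and 1 fell, a rising share close to the 17.7% of all genes. Ighg3 differed by 2.65 (adjusted p = 0.0445), Prdm1 by 0.67 (adjusted p = 0.00957) and Mzb1 by -1.28 (adjusted p = 0.00433). Ighg3 was 6.92, 7.28 and 11.06 on the wild type arrays, so replicate 3 lay within the range of adjacent tissue and the groups overlapped. Its difference was 3.97 (adjusted p = 0.00136) without wild type replicate 3 and 1.90 without replicate 1, and 5 of the 6 fits that each leave out 1 array lost the call (adjusted p up to 0.157).

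**Figure D4:**
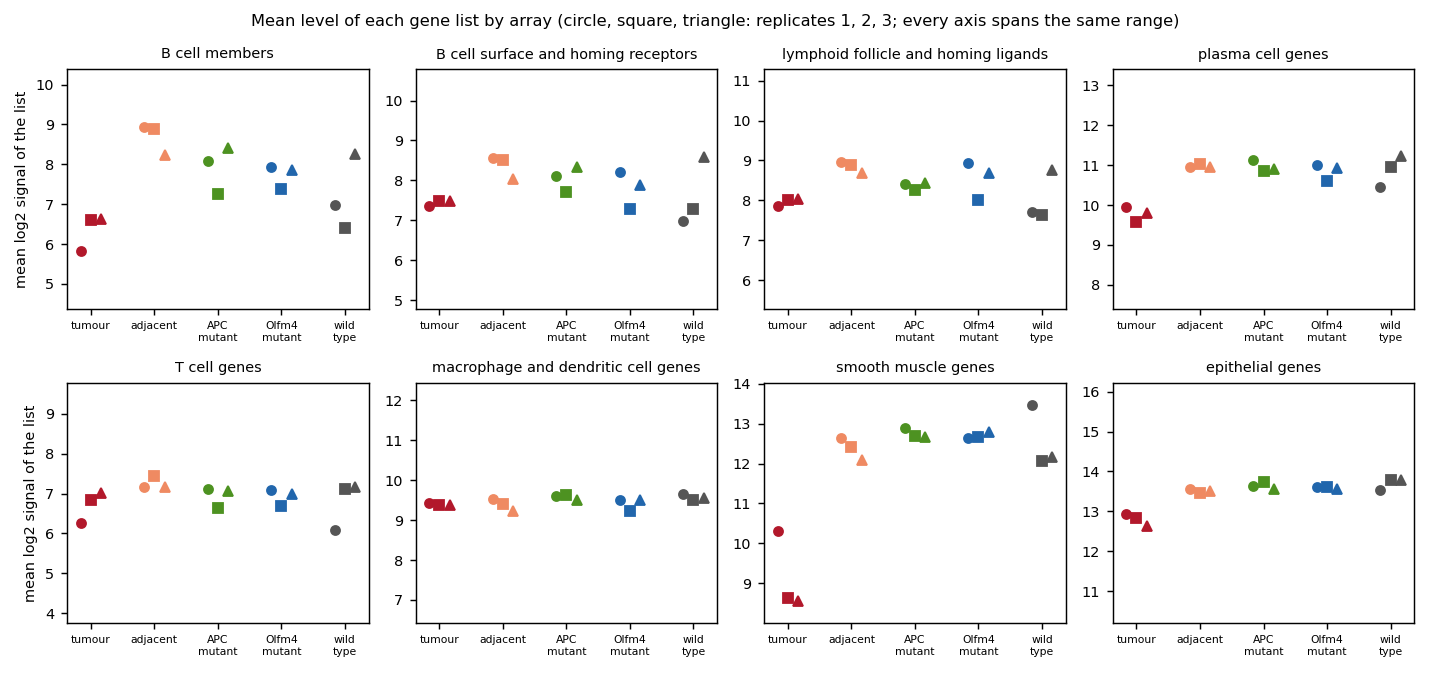
Mean log2 signal of each gene list (vertical axis) on each array, by group, with circles, squares and triangles for replicates 1, 2 and 3; tumour and adjacent tissue are both from the double mutants. All lists shown except the macrophage and dendritic cell genes have every tumour below every adjacent array. Wild type replicate 3 lies above the other wild type arrays for the B cell genes, the surface receptors and the follicle ligands. It does so too for the plasma cell genes and, narrowly, for the T cell genes.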

How the data were processed

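Per the labels' protocols, RNA was isolated with Trizol, and cRNA carrying biotin was put on Affymetrix Mouse430_2 arrays. The log2 values were computed by the authors with RMA and Partek 6.5, as far as the submitters' processing notes name tools. RMA puts the arrays on a common distribution, so a shift of most genes one way is largely removed. From these values, 2.56 to 14.96 over 45101 probe sets, 64 controls and the probe sets with several symbols (932) or none (9160) were left out, and the brightest probe set stood for each of 18193 genes. No dim gene was filtered.

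The 15 arrays entered 1 limma fit (version 3.58.1, R 4.3.3) with a mean for each of the 5 groups, and Benjamini-Hochberg adjustment ran over all genes within each comparison, at a threshold of 0.05. Standard errors (SE) are of the fitted log2 difference, 3 arrays against 3. Single probe sets were adjusted over all 45037 tested. Adjacent and tumour samples share animals by their titles. Deviations of pairs 1, 2 and 3 from the group means correlated at 0.281, -0.0155 and 0.182. Tumour 2 with adjacent 3 and tumour 3 with adjacent 2, also of the same animal by title, gave 0.124 and 0.126. Pairs of different animals gave -0.259 to -0.0881. The spike-in gap is the mean 3-prime minus 5-prime difference of 4 added bacterial RNAs. Likeness of profiles was the root mean square difference of centred profiles. The 12 lists (116 of 127 genes measured) were read by counts and medians, and genes were named from the 5 with the largest absolute difference per list and comparison. Tcf3 and Prdm1 were named beside these in tumour against adjacent tissue, to complete the counts that rose. The members and lists were chosen with earlier results of these data known. The fit was tested on simulated data. Alternatives are given in the closing section.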

Additional observations from a re-analysis of the deposited data

How the results depend on the processing

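Over 322 alternatives of the 23 called differences of the 9 genes, 320 kept the direction and 271 the call, and 16 differences without a call gained one. The spike-in covariate left 1 of the 9 genes called in tumour against adjacent tissue and 0 in tumour against wild type, APC mutant and Olfm4 mutant and in adjacent against wild type and APC mutant; Cd79b then turned to 0.79 against wild type (adjusted p = 0.973) and 0.23 against Olfm4 mutant colon (adjusted p = 0.990), and the cause was not tested. Only 4 of the 9 genes lay above the median of all genes, and with that filter 4 were called in tumour against adjacent tissue and 2 in adjacent against wild type. In adjacent against APC mutant the call of Cd22 made 1 gene, against 0 with the mean of all probe sets, 0 with the arrays of an animal averaged and 2 with only the groups compared. Leaving out 1 array gave 2 to 5 genes in tumour against APC mutant, 0 to 2 in adjacent against APC mutant and 0 to 2 in Olfm4 mutant against wild type. With the replicate number as a block, 7 genes were called in tumour against adjacent tissue, where 8 were called without it, and it changed no other call there. Blk was also lost with only the groups compared (adjusted p = 0.0521), with the arrays of an animal averaged (adjusted p = 0.0654) and without tumour replicate 1 or 2 or adjacent replicate 1 or 2 (adjusted p from 0.0546 to 0.163). In tumour against Olfm4 mutant colon the 4 calls became 3, without Cr2, under both treatments of animal. Signal over background could not be assessed, since no detection calls were given here, and the number of arrays limits the precision.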

Other observations

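Several other lists were read across the same comparisons. In tumour against adjacent tissue 13.8% of all 18193 genes fell, and 5112 passed in either direction. In adjacent tissue against wild type 17.7% of all genes rose. Of 7 genes listed for the germinal centre, 2 fell and 2 rose in tumour against adjacent tissue. Rgs13 differed by -2.96 (adjusted p = 0.00374), S1pr2 by 1.02 (adjusted p = 6.5e-05) and Mybl1 by 0.80 (adjusted p = 0.0384). Rgs13 was 8.03, 9.97 and 9.998 on the wild type arrays, where the 9 B cell genes averaged 6.97, 6.399 and 8.27. It thus did not follow them there, and the cells that gave its signal were not tested. Without tumour replicate 1 Rgs13 differed by -3.77, and 4 of 6 fits that each leave out 1 array lost the call of Mybl1 and 0 that of S1pr2. In adjacent tissue against wild type 3 of the 7 rose. They were Mybl1 at 1.67 (adjusted p = 0.000987), Bcl6, the germinal centre repressor, at 0.50 (adjusted p = 0.0395) and S1pr2 at 0.39 (adjusted p = 0.0374). The call of Bcl6 was lost in 4 of the 6 such fits, that of S1pr2 in 5 and that of Mybl1 in 0. Of 8 MHC class II genes 2 fell in tumour against adjacent tissue, H2-Ob at -2.76 (adjusted p = 0.00713) and H2-Oa at -1.63 (adjusted p = 0.0194), the chains of a modulator of class II peptide loading in B cells, with the call of H2-Oa lost in 3 of the 6. In adjacent tissue against wild type H2-Ob differed by 2.51 (adjusted p = 0.0143), by 1.86 (adjusted p = 0.0607) without wild type replicate 2 and by 3.47 without replicate 3. Of 12 macrophage and dendritic cell genes 1 fell and 1 rose in tumour against adjacent tissue, and their mean level was 9.39 to 9.42 in tumours and 9.23 to 9.52 in adjacent tissue.

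Glycam1, a ligand for lymphocyte homing on the venules of lymphoid tissue, was 4.85, 6.95 and 7.26 in tumours and 9.77, 9.86 and 9.31 in adjacent tissue, 9.49, 8.76 and 8.56 in APC mutant, 10.64, 6.86 and 9.90 in Olfm4 mutant and 6.69, 4.52 and 9.84 in wild type colon. It differed by -3.29 (adjusted p = 0.0538) in tumour against adjacent tissue. Wild type replicate 3 was the highest wild type array for it, as for 8 of the 9 B cell genes. Ighm, the heavy chain of IgM, was 11.65, 10.13 and 11.93 in tumours, 12.48, 11.90 and 12.74 in adjacent tissue and 11.39, 12.80 and 11.97 in wild type colon. It differed by -1.14 (adjusted p = 0.201) in tumour against adjacent tissue, the direction of the B cell genes, but with overlapping arrays. On the wild type arrays its order was not that of the B cell genes. Ighm was chosen for mention after its values were seen.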
